A study of Homo sapiens with 6 samples.

Results

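The 4 HOX clusters (HOXA, HOXB, HOXC and HOXD) were examined in chromatin contact maps of G401, a human rhabdoid tumour line. The members are the deposited loops with at least 1 anchor in a window around a cluster: chr7:27130000-27250000 for HOXA, chr17:46600000-46810000 for HOXB, chr12:54330000-54450000 for HOXC and chr2:176950000-177060000 for HOXD (hg19). Over the 6 libraries, 1434 of 501157 distinct loops met this rule. HiChIP joins DNA ends that lie close together in the nucleus and pulls down those bound by a chosen protein or mark. Each listed loop connects 2 called anchors and carries a count of paired-end tags (PETs), the read pairs that join them.

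There were 3 groups of 2 libraries, all from a stable G401 line that carries a doxycycline-inducible SMARCB1. H3K27ac, a mark of active promoters and enhancers, was profiled on day 0 (genotype given as SMARCB1 -/-) and on day 3 (SMARCB1 +/+), and ARID1A, a subunit of the SWI/SNF remodelling complex, on day 3 (SMARCB1 +/+). Re-expression used doxycycline at 1 µg/ml, so SMARCB1, the drug and 3 days of time differ together between the H3K27ac groups, and their parts cannot be told apart. No group received doxycycline without SMARCB1, the line is a single model, and no label says that the 2 libraries of a group came from separate cultures. P-values therefore cover only how far these libraries scatter, and that scatter may be technical.

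HOX genes encode homeodomain transcription factors that assign positional identity along the embryonic axis. Genes of a cluster lie in the order in which they are used along that axis, from low paralog numbers at one end to high numbers at the other, and Polycomb repression opposes their activation. SWI/SNF complexes, which lose the subunit SMARCB1 in rhabdoid tumours, are known antagonists of Polycomb.

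The windows stand for 38 HOX genes. HOXA held HOXA2, HOXA3, HOXA4, HOXA5, HOXA6, HOXA7, HOXA9, HOXA10, HOXA11 and HOXA13, and HOXB held HOXB1 to HOXB9 and HOXB13. HOXC held HOXC4, HOXC5, HOXC6 and HOXC8 to HOXC13, and HOXD held HOXD1, HOXD3, HOXD4 and HOXD8 to HOXD13. In RefSeq, the gene nearest the low-coordinate end, among these, is HOXA2 for HOXA, HOXB1 for HOXB, HOXC13 for HOXC and HOXD13 for HOXD. By the low-coordinate ends of the genes, the paralog order runs upward in HOXA and HOXB and downward in HOXD. In HOXC it runs downward from HOXC13 to HOXC8, and then come HOXC4, HOXC5 and HOXC6. RefSeq positions were on another build than the loops, so no anchor below is assigned to a single gene.

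A promoter from each cluster is shown so that base composition can be set beside the contacts. The 250 bases before the RefSeq start (GRCh38.p14, whose coordinates do not match those of the loops) are given 5′ to 3′, with every CG dinucleotide, which reads the same on both strands, in capitals. They are chr7:27200092-27200341 (minus strand) for HOXA13, chr17:48531012-48531261 (minus strand) for HOXB1, chr12:54016638-54016887 (plus strand) for HOXC4 and chr2:176092471-176092720 (plus strand) for HOXD13.
HOXA13: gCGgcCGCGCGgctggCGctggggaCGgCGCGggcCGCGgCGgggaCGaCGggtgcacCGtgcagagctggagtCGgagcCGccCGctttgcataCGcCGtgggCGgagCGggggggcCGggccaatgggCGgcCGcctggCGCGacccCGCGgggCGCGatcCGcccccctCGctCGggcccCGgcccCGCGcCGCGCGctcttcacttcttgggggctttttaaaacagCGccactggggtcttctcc
HOXB1: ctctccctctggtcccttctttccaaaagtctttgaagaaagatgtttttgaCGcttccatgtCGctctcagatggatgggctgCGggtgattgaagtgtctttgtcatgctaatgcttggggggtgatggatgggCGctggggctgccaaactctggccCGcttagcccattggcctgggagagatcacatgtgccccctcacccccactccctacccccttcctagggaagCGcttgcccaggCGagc
HOXC4: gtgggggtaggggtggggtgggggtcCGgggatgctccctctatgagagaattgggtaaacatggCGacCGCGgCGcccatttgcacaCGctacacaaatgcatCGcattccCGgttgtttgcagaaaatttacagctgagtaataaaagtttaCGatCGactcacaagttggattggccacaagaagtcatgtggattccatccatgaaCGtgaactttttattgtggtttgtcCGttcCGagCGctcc
HOXD13: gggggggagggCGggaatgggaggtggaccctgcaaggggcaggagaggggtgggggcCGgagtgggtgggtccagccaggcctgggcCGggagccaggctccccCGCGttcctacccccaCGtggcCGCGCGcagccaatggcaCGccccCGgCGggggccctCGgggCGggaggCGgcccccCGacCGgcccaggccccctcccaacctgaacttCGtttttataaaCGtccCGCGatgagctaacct
These stretches held 40, 7, 14 and 21 CG dinucleotides in that order. Over the 300 bases that RefSeq's table gives per start, which add 50 after it, HOXA13 had 44, a count reached by 4.19% of all promoters. HOXD13 had 24 (33.9% of all promoters had as many), HOXC4 had 15 (48.9%) and HOXB1 had 11 (54.7%). The listed promoters of HOXC4 and HOXC5 had the same count and the same share of G and C (51.7%). Whether they are the same stretch was not tested. Promoters were listed for 20 of the 38 genes. The 8 listed HOXD genes had a median of 24.5 CG dinucleotides and the 9 listed HOXA genes 23, against 14 over all 35116 promoters. Whether this count goes with contacts was not tested.

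Listed PETs numbered 253502 to 982141 per library, and the HOX windows took 868 to 5097 of them. The day 3 H3K27ac libraries were deeper than the others. Levels below are PETs per 1000000 listed PETs of the library (CPM). Folds come from edgeR's quasi-likelihood test with TMM scaling and Benjamini-Hochberg adjustment over all features tested, at an adjusted p under 0.05. TMM equalises the typical feature and library totals do not: for windows and tiles from day 0 to day 3, the median log2 fold change was 0.06 with TMM and 0.38 with totals, while for anchors it was -0.01 and -0.51.

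HOXA and HOXB were strongly connected on day 0, HOXC less so, and HOXD had no listed loop in any of the 6 libraries. HOXA had 3464 and 3247 CPM in the day 0 H3K27ac libraries, 2147 and 2049 CPM in the day 3 H3K27ac libraries, and 630 and 586 CPM in the ARID1A libraries. The 3 groups did not overlap. HOXB had 2758 and 2730 CPM on day 0, 2595 and 2569 CPM on day 3, and 804 and 821 CPM with ARID1A. Here the H3K27ac groups lay close together and the ARID1A libraries well below. HOXC had 925 and 990 CPM on day 0, 608 and 572 CPM on day 3, and 561 and 601 CPM with ARID1A, so that the day 3 groups overlapped.

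**Figure D1:**
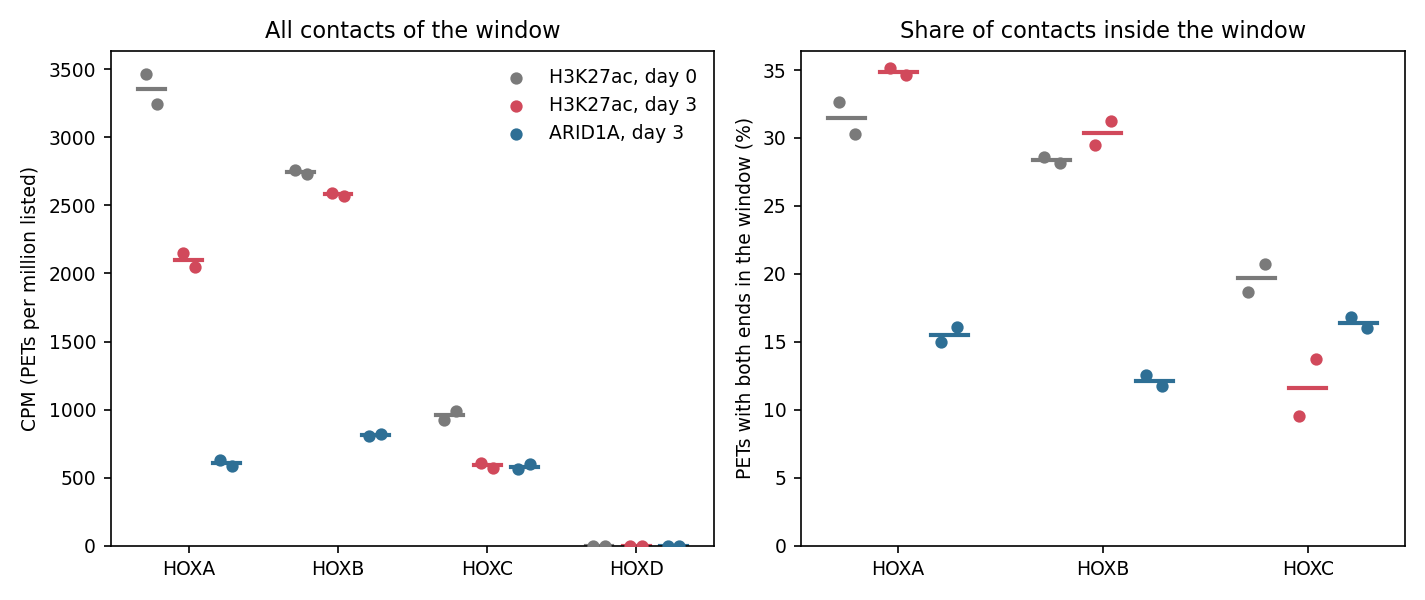
Left, contacts of each HOX window (CPM) by library; right, share of a window's PETs with both ends inside it (%). Points are libraries and bars are means of 2; HOXD is at 0 in every library, and HOXA falls from about 3464 CPM at its highest on day 0 to 586 CPM at its lowest with ARID1A.

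Between day 0 and day 3, H3K27ac contacts of HOXA and HOXC fell about 2-fold as shares of the libraries, not as amounts of contact. The log2 fold change was -1.001 ± 0.06 for HOXA (SE, n = 2 libraries against 2, edgeR adjusted p = 4.15e-62) and -1.02 ± 0.09 for HOXC (edgeR adjusted p = 1.68e-28). With library totals in place of TMM, they were -0.68 and -0.70. For HOXB the log2 fold change was -0.41 ± 0.06 (edgeR adjusted p = 5.53e-11). This call was lost with library totals and without loops inside a merged anchor, as described below. All 3 windows with loops were called lower. Over all 5117 windows and tiles, 64.6% were called and 31.3% were called lower, so a call by itself was common. TMM gave 1702 higher and 1602 lower, and library totals 2294 and 1086. With only loops of a deposited value of 0.01 or less, the HOXC fold was -0.64 (edgeR adjusted p = 0.0837).

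The HOXB value depended on how anchors were drawn at the high-coordinate end. On day 0 a pair of neighbouring anchors, chr17:46792333-46818374 and chr17:46820983-46836791, shared 261 and 207 PETs in the 2 libraries, the most of any HOX loop there. On day 3 a single H3K27ac anchor, chr17:46794884-46837386, took in all of the second and nearly all of the first, so that contact could not be listed. When loops inside a merged anchor were left out, an alternative added after the data were seen, the HOXB log2 fold change was 0.011 (edgeR adjusted p = 0.893), with 1893 and 1913 CPM on day 0 and 2474 and 2462 CPM on day 3, so that the day 3 libraries were the higher ones in CPM. HOXA and HOXC kept log2 fold changes near -1 in the plot of fold changes. Library totals gave HOXB -0.088 (edgeR adjusted p = 0.174).

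**Figure D2:**
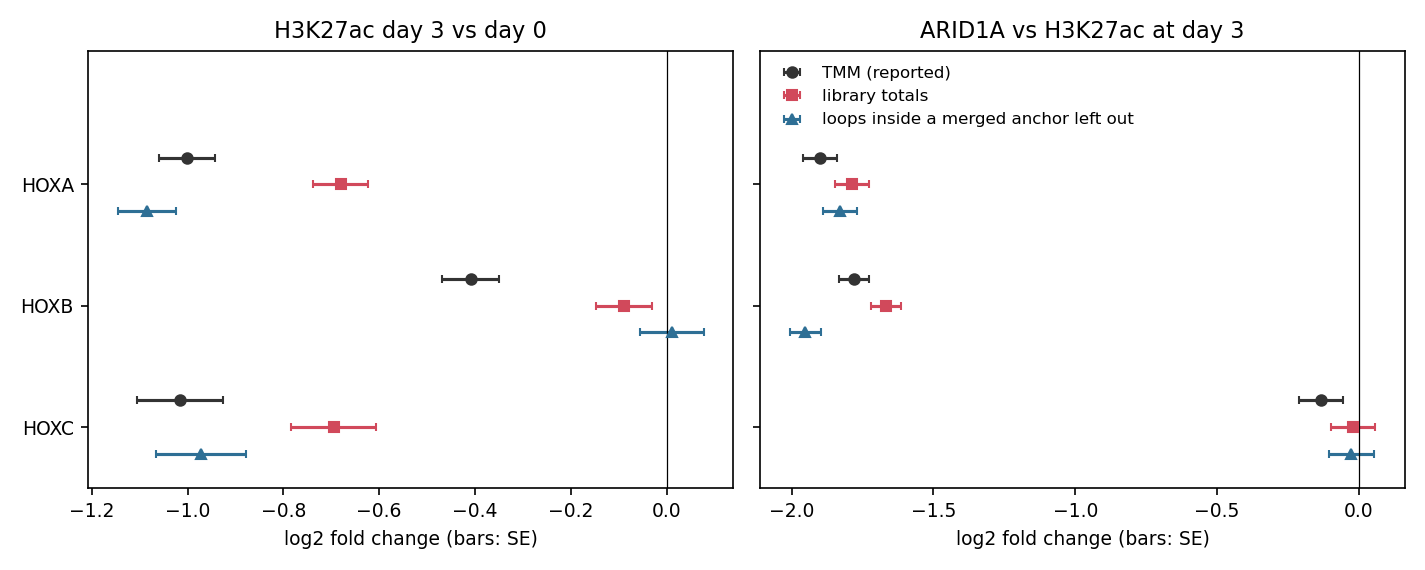
Log2 fold change of the contacts of each HOX window (x axis) in both comparisons, by edgeR; bars are SE, n = 2 libraries against 2. HOXB between day 0 and day 3 moves from -0.41 with TMM to 0.011 without loops inside a merged anchor, while HOXA stays at -0.68 or below.

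Among single anchors, 2 of the 3 tested in HOXA fell. Anchors of all libraries that overlapped were merged, and those called in both groups were tested on loops whose 2 ends were called in both. In HOXA, the anchor chr7:27186269-27233068, in the higher-coordinate part of the window, had 2214 and 2035 CPM on day 0 and 1084 and 967 CPM on day 3. Its log2 fold change was -0.55 ± 0.07 (SE, edgeR adjusted p = 1.60e-13), and -1.06 with library totals. The anchor at the HOXA2 end, chr7:27132999-27163006, had 1455 and 1337 CPM on day 0 and 807 and 773 CPM on day 3, a log2 fold change of -0.32 ± 0.07 (edgeR adjusted p = 0.000147). Without the second day 3 H3K27ac library its edgeR adjusted p was 0.0709. The anchor between them, chr7:27166639-27178972, had 557 and 485 CPM on day 0 and 407 and 412 CPM on day 3. Its log2 fold change was 0.15 ± 0.11 with TMM (edgeR adjusted p = 0.277) and -0.35 with library totals (edgeR adjusted p = 0.00478), so its direction was not settled.

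Of the 9 HOX anchors tested, 2 fell and 1 rose, against 39.5% called and 18.8% called lower among 6251 anchors. Library totals called 7 of the 9 HOX anchors, all lower, and over all anchors 490 higher and 2958 lower, against 1294 and 1177 with TMM. The anchor that rose was chr17:46628795-46641844 of HOXB, which had 434 and 347 CPM on day 0 and 363 and 374 CPM on day 3. The groups overlapped in CPM. Its log2 fold change was 0.41 ± 0.12 with TMM (edgeR adjusted p = 0.00285) and -0.10 with library totals, so its sign turned with the scaling. Without the second day 0 library the edgeR adjusted p was 0.175. Among the other HOXB anchors, chr17:46792333-46846380, which reaches past the HOXB13 end of the window, had 1054 and 1065 CPM on day 0 and 873 and 815 CPM on day 3. Its log2 fold change was 0.18 ± 0.08 with TMM (edgeR adjusted p = 0.0639) and -0.33 with library totals. Without the second day 3 H3K27ac library it was called, at 0.28 (edgeR adjusted p = 0.0352). The anchors chr17:46643265-46672944 and chr17:46608965-46627910 had log2 fold changes of 0.05 ± 0.08 and 0.14 ± 0.10 (edgeR adjusted p = 0.644 and 0.273), and both were below 0 with library totals.

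Neither tested HOXC anchor passed. The anchor at the HOXC13 end, chr12:54328305-54349562, had 411 and 465 CPM on day 0 and 267 and 250 CPM on day 3, a log2 fold change of -0.25 ± 0.12 (edgeR adjusted p = 0.0952). The anchor at the opposite end, chr12:54436183-54452317, had 298 and 249 CPM on day 0 and 234 and 211 CPM on day 3 (log2 fold change 0.19 ± 0.14, edgeR adjusted p = 0.297, and -0.31 with library totals). The windows and the anchors use different loops and different TMM factors, so their folds are not on one scale. Called widths changed too: 44042 bp on day 0 and 39792 bp on day 3 for the HOXA anchor that fell most, and 7928 and 13049 bp for the HOXB anchor that rose. Among anchors of similar width in both groups, 0 of the 5 HOX anchors tested were called by edgeR, with 4 at an unadjusted p under 0.05, and over all such anchors 113 of 1789 were called.

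**Figure D3:**
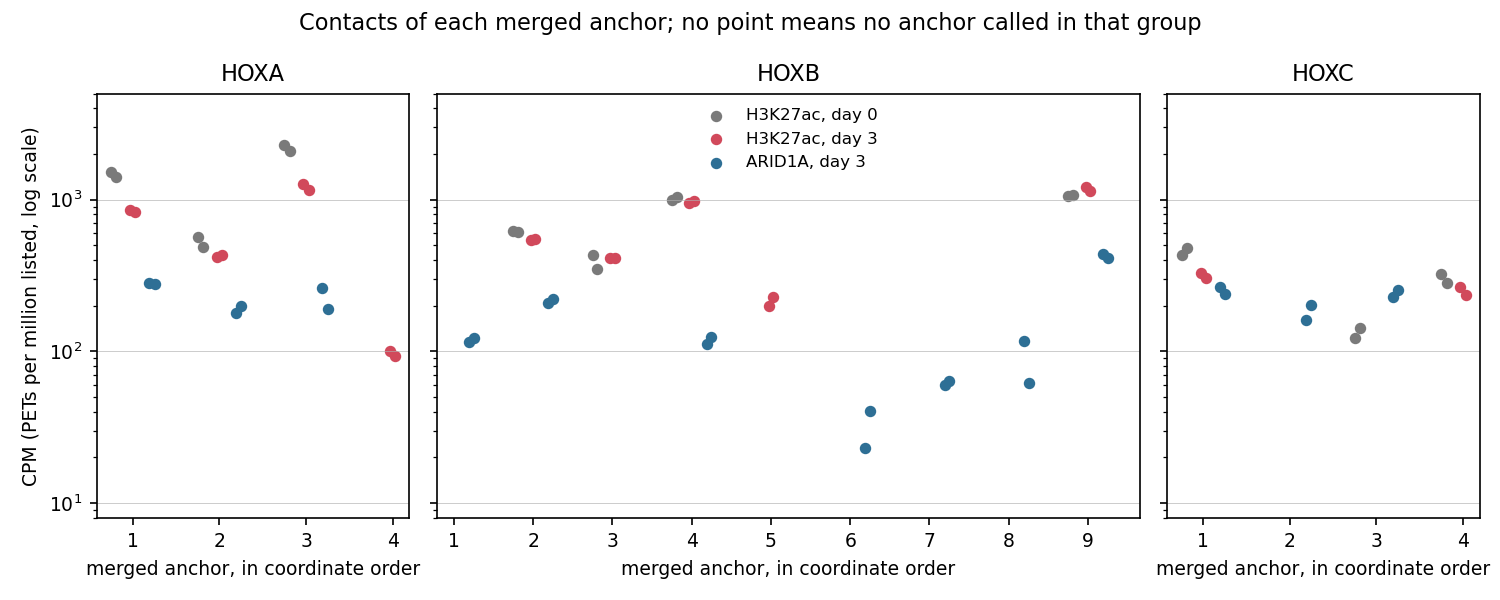
Contacts of every merged anchor of the HOXA, HOXB and HOXC windows (CPM on a log axis), with anchors numbered from low to high coordinate. Points are single libraries; a missing colour means that no anchor was called there in that group, as for ARID1A at the fourth HOXA anchor.

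Most single HOX loops called lower between day 0 and day 3 were in HOXA, by share of the library and not by amount of contact. Of 119 HOX loops tested between day 0 and day 3, 11 fell and 4 rose, against 15.0% called and 6.70% called lower among 16642 loops. HOXA had 10 of the loops that fell and none that rose, out of 43 tested. The HOXA loop with the most PETs joined chr7:27132999-27163006 and chr7:27186269-27233068, the first and the third of the anchors tested in HOXA, and had 183 and 125 PETs on day 0 and 254 and 213 on day 3 in the deeper libraries. That was 549.8 ± 80.2 CPM on day 0 and 245 ± 40.0 CPM on day 3 (SD, n = 2), with a log2 fold change of -0.71 ± 0.12. Its inner contacts did not pass: the first anchor with the middle one had 201 ± 10.98 and 171 ± 11.8 CPM (log2 fold change 0.23 ± 0.16), and the middle with the third had 192 ± 19.8 and 129 ± 2.09 CPM (-0.11 ± 0.17). The signs of both turned under other settings. HOX loops had a median log2 fold change of -0.05, against 0.06 over all loops tested.

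The other 9 HOXA loops that fell led out of the window to lower coordinates, and 8 of them ended on chr7:27186269-27233068. The one with the most PETs ran over 1274 kb to chr7:25881214-25912056, with 60 and 51 PETs on day 0 and 98 and 94 on day 3 (200.03 ± 1.63 and 101 ± 6.91 CPM, log2 fold change -0.52 ± 0.18, edgeR adjusted p = 0.0320). In HOXC the only loop that fell was also the one with the most PETs, from chr12:54328305-54349562 to chr12:54139777-54152334, 176 kb away. It had 32 and 38 PETs on day 0 and 21 and 23 on day 3, or 128 ± 31.0 and 23.0 ± 0.577 CPM, a log2 fold change of -1.97 ± 0.27. The called width of that partner was 10805 bp on day 0 and 5866 bp on day 3.

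The largest HOXB loops did not pass. The one inside the window, chr17:46608965-46627910 with chr17:46643265-46672944, had 97 and 94 PETs on day 0 and 192 and 226 on day 3 (log2 fold change -0.18 ± 0.14), and chr17:46628795-46641844 with chr17:46643265-46672944 had 60 and 46 and then 167 and 189 (0.43 ± 0.16, edgeR adjusted p = 0.0530). From chr17:46792333-46846380, the loop to chr17:47036737-47085309 had 63 and 54 PETs and then 119 and 155 (-0.09 ± 0.17), and the one to chr17:46867225-46880913 had 36 and 28 and then 109 and 99 (0.39 ± 0.21). In HOXC, chr12:54646883-54698929 had 14 and 10 PETs on day 0 and 48 and 31 on day 3 with chr12:54436183-54452317 (0.40 ± 0.33), and 19 and 10 and then 39 and 34 with chr12:54328305-54349562 (0.02 ± 0.32). The loop of chr12:54436183-54452317 with chr12:54470559-54478235 had 16 and 12 and then 30 and 34 PETs (-0.12 ± 0.33). Most of these fold changes took the other sign under some alternatives.

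The 4 loops called higher were outward loops of HOXB and HOXC. The deeper day 3 libraries alone could carry a loop past the filter. The HOXB anchor chr17:46792333-46846380 rose with chr17:47087915-47110942, which had 5 and 4 PETs on day 0 and 38 and 46 on day 3 (a log2 fold change of 1.89 ± 0.43). It was also called higher with chr17:46960348-46993850, which had 15 and 24 PETs on day 0 and 67 and 91 on day 3 (0.70 ± 0.25). In CPM these were 49.7 and 94.7 against 72.1 and 92.7, which overlapped. That partner had 0 PETs on day 0 and 7 and 11 on day 3 with chr17:46608965-46627910. This last loop passed the filter through the day 3 libraries only. Widths of these partners grew, from 4067 to 11436 bp and from 5396 to 17488 bp. For HOXC, chr12:54436183-54452317 with chr12:54713245-54738599 had 6 and 0 PETs on day 0 and 28 and 19 on day 3 (1.63 ± 0.55). The groups overlapped in CPM, at 19.9 and 0 against 30.1 and 19.3. DESeq2 called 2 of the 119 loops, both lower, and gave no adjusted p for 63. With only loops of a deposited value of 0.01 or less, edgeR called 19 HOX loops higher and 3 lower, and the median log2 fold change over all loops was then 1.10. Among all 8593 loops tested at that threshold 3374 were higher and 290 lower, so a higher loop was less frequent in HOX, at 19 of 105, than overall. HOX calls were also mostly higher without a count filter (8 higher and 2 lower; 1507 and 357 over all loops) and with every merged anchor (59 and 17; 22086 and 3103 over all loops). With any 1 library left out fewer loops were called, in HOX and over all loops. The median HOX log2 fold change then ran from -0.13 to 0.01, and that over all loops from -0.06 to 0.15. Over all loops, 1389 were higher and 1115 lower with TMM, and 684 higher and 2919 lower with library totals, which called 26 HOX loops, 24 of them lower. Of the 4 loops that rose, library totals left 2 called and gave 0.23 (edgeR adjusted p = 0.557) for chr17:46792333-46846380 with chr17:46960348-46993850 and 1.17 (edgeR adjusted p = 0.132) for the HOXC loop.

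Set beside H3K27ac on the same day, ARID1A contacts were fewer in HOXA and HOXB, while in HOXC no difference was called. The log2 fold change of ARID1A over H3K27ac was -1.90 ± 0.06 for HOXA (SE, n = 2 against 2, edgeR adjusted p = 1.47e-76) and -1.78 ± 0.05 for HOXB (edgeR adjusted p = 3.73e-80), or 3.73-fold and 3.43-fold lower. For HOXC it was -0.13 ± 0.08 (edgeR adjusted p = 0.111). That value was called without the first (-0.26) or second (-0.35) day 3 H3K27ac library, and its sign turned with loops at 0.01 or less (0.25, edgeR adjusted p = 0.163). It was also called with the rest of the genome in 200 kb tiles (-0.16, edgeR adjusted p = 0.0460). The antibodies may differ in yield, so these folds set shares of libraries side by side, not amounts bound. Among 7573 windows and tiles, 80.0% were called and 40.8% were called lower.

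Ratios between windows do not depend on library totals. HOXC over HOXA was 0.267 and 0.305 on day 0, 0.283 and 0.279 with day 3 H3K27ac, and 0.891 and 1.03 with ARID1A. HOXB over HOXA was 0.796 and 0.841 on day 0, 1.21 and 1.254 with day 3 H3K27ac, and 1.28 and 1.40 with ARID1A. By totals of whole windows, the order of the clusters was thus HOXA, HOXB, HOXC on day 0 and HOXB, HOXA, HOXC with H3K27ac on day 3, and with ARID1A HOXA and HOXC overlapped. The HOXB window is the longest, at 210 kb against 120 kb. Per kb of window, HOXA led on day 3 as well, at 17.9 and 17.1 CPM per kb against 12.4 and 12.2 for HOXB, and HOXB was the lowest with ARID1A, at 3.83 and 3.91.

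All 7 HOX anchors called in both day 3 groups were lower with ARID1A, against 64.0% called and 32.5% called lower among 11052 anchors. Over those anchors 3477 were higher and 3597 lower with TMM, and 1831 and 5818 with library totals, and the 7 stayed lower. The lowest was chr17:46643265-46672944 of HOXB, with 696 and 703 CPM for H3K27ac and 73.5 and 85.6 CPM for ARID1A (log2 fold change -2.52 ± 0.14, edgeR adjusted p = 7.88e-74). Its called width was 29679 bp with H3K27ac and 8392 bp with ARID1A. HOXA's chr7:27186269-27233068 had 956 and 857 CPM against 165 and 122 CPM (-2.05 ± 0.11), and chr7:27132999-27163006 had 751 and 726 CPM against 179 and 195 CPM (-1.37 ± 0.11). The middle HOXA anchor had 384 and 407 CPM against 122 and 158 CPM and the smallest difference of the 7 (-0.88 ± 0.13). HOXB's chr17:46792333-46846380 and chr17:46608965-46627910 differed by -1.10 ± 0.08 and -1.09 ± 0.13. The HOXC13-end anchor, chr12:54328305-54349562, had 302 and 280.0 CPM against 117 and 70.6 CPM (-1.03 ± 0.16), while its window as a whole was not called.

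Of 119 HOX loops tested between the day 3 groups, 48 were lower and 3 higher with ARID1A. Over all 28338 loops 33.3% were called and 18.8% were called lower. The filter of 4 PETs in any 2 libraries could be met by the deeper H3K27ac libraries alone, which favours loops low with ARID1A. Every tested loop inside HOXA and HOXB, 3 in each, was lower. The largest inside HOXA had 254 and 213 PETs with H3K27ac and 14 and 12 with ARID1A (-2.51 ± 0.24). The largest inside HOXB, chr17:46608965-46627910 with chr17:46643265-46672944, had 192 and 226 PETs against 7 and 12 (-2.80 ± 0.26). By contrast, the HOXA loop from chr7:27166639-27178972 to chr7:26887719-26906661 was higher, with 30 and 30 PETs for H3K27ac and 19 and 23 for ARID1A (1.13 ± 0.29, edgeR adjusted p = 0.00116). With library totals it was 0.56 (edgeR adjusted p = 0.101) and not called. The same partner with the HOXA2-end anchor had 96 and 107 against 18 and 28 PETs (-0.49 ± 0.23, edgeR adjusted p = 0.0837). The other 2 higher loops were HOXB loops of 3 to 9 PETs per library. The remaining HOXA loops inside the window had 151 and 176 against 26 and 24 PETs (first with middle anchor, -1.05 ± 0.21) and 121 and 125 against 1 and 5 PETs (middle with the third, -3.68 ± 0.38). From HOXB's chr17:46792333-46846380, the loop to chr17:47036737-47085309 had 119 and 155 against 10 and 9 PETs (-2.19 ± 0.28). Its loop to chr17:46867225-46880913 had 109 and 99 against 22 and 21 PETs (-0.62 ± 0.23), and the one to chr17:46888830-46923041 had 87 and 72 against 18 and 30 (-0.07 ± 0.24, edgeR adjusted p = 0.830).

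In HOXC, 5 of 20 tested loops were lower with ARID1A and none was higher. From chr12:54328305-54349562, the loop to chr12:54646883-54698929 had 39 and 34 PETs with H3K27ac and 5 and 5 with ARID1A (-1.20 ± 0.43), and that to chr12:54713245-54738599 had 22 and 33 against 4 and 2 (-1.52 ± 0.54). To the low side, the partner chr12:54067838-54075533 had 20 and 24 against 3 and 3 PETs (-1.20 ± 0.58, edgeR adjusted p = 0.0888). HOX loops had a median log2 fold change of -1.68, against -0.49 over all loops tested. Both medians can include loops that passed the filter through H3K27ac alone and are low with ARID1A by that selection. The loop of chr12:54328305-54349562 with chr12:54139777-54152334 had 21 and 23 against 8 and 5 PETs (-0.10 ± 0.46, edgeR adjusted p = 0.873). Leaving out the first or the second day 3 H3K27ac library left 40 or 39 HOX loops tested, with medians of -1.08 and -1.09. The medians over all loops were then 0.007 and 0.02. Without the first or the second ARID1A library the HOX medians were -1.63 and -1.59, against -0.51 and -0.57 over all loops. In every case fewer loops were called, in HOX and over all loops. Over all loops, 4118 were higher and 5314 lower with TMM, and 2657 higher and 10022 lower with library totals, which called 75 HOX loops, 74 of them lower.

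The clusters also differed in where anchors were called. In HOXA, anchors covered 82.4 of 120 kb on day 0, 85.1 kb with day 3 H3K27ac and 43.7 kb with ARID1A, and all of the ARID1A stretch also lay in day 3 H3K27ac anchors. In HOXB, ARID1A anchors covered 51.7 of 210 kb, of which 22.3 kb (43.1%) lay in no H3K27ac anchor of either day. In HOXC, H3K27ac anchors lay near either end of the window only, covering 29.7 of 120 kb on day 3. ARID1A anchors covered 63.0 kb there, with 14.9 kb in day 3 H3K27ac anchors and 40.1 kb (63.7%) in no H3K27ac anchor of either day. Over the whole genome 54.3% of the ARID1A anchor length lay in no H3K27ac anchor, so HOXB was below that share, HOXC above it and HOXA at 0. Signal is listed only where an anchor was called, so this compares calls and not signal.

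**Figure D4:**
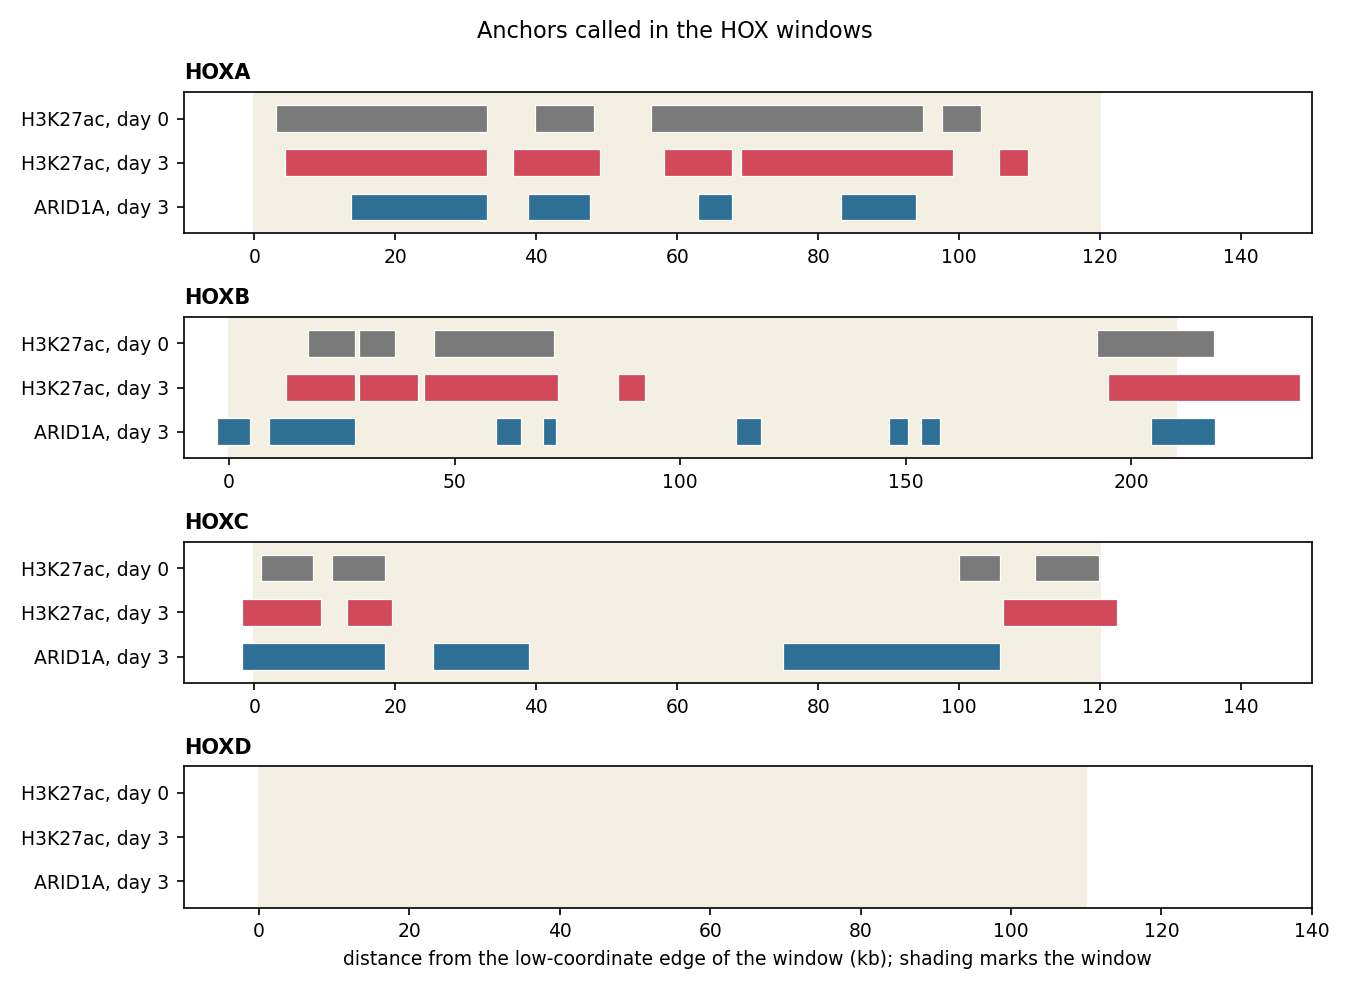
Anchors called in each group (rows) along the 4 HOX windows; the x axis is distance from the low-coordinate edge (kb) and shading marks the window. 2 ARID1A anchors lie in the middle of HOXC, where H3K27ac has none on day 3, and HOXD is empty in all 3 groups.

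Inside HOXC, chr12:54355383-54369010 was an ARID1A anchor with no H3K27ac anchor, with 70 and 95 PETs (161 and 203 CPM). Its neighbour chr12:54405017-54435825 had 99 and 119 PETs with ARID1A (227 and 255 CPM). Of the 30808 bp that ARID1A covered there, H3K27ac covered 5881 bp on day 0, with 37 and 36 PETs, and none on day 3. The 3 ARID1A anchors of HOXC were joined to each other: the first and second shared 28 and 26 PETs, the first and the last 9 and 11, and the second and the last 4 and 8. In HOXB, ARID1A anchors without H3K27ac had fewer contacts: chr17:46712306-46717922 had 10 and 19 PETs, chr17:46746200-46750555 had 26 and 30, chr17:46753476-46757563 had 51 and 29, and chr17:46597398-46604610 at the HOXB1 end had 50 and 57. In HOXB and HOXA, 1 H3K27ac anchor each was called on day 3 only and met no ARID1A anchor: chr17:46686164-46692254 in HOXB (186 and 224 PETs) and chr7:27235592-27239797 in HOXA (94 and 92 PETs).

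The share of a window's PETs with both ends inside it ran differently in HOXC. In HOXA it was 31.4% ± 1.68 on day 0, 34.9% ± 0.351 with day 3 H3K27ac and 15.5% ± 0.774 with ARID1A (SD, n = 2). HOXB had 28.4% ± 0.302, 30.4% ± 1.26 and 12.1% ± 0.603. HOXC had 19.7% ± 1.47, 11.6% ± 2.93 and 16.4% ± 0.558, so ARID1A was below day 3 H3K27ac in HOXA and HOXB and above it in HOXC. No pair of groups overlapped in these 6 comparisons as counted here. With only loops at 0.01 or less, HOXC had 0% and 26.1% on day 0 and 0% and 13.7% on day 3. The H3K27ac libraries of the 2 days then overlapped in both HOXB and HOXC. With every library thinned to the smallest, HOXC had 9.71% and 17.6% with day 3 H3K27ac and 14.6% and 17.1% with ARID1A, which overlapped. Without loops inside a merged anchor the HOXB change from day 0 to day 3 was -9.17 percentage points in place of 1.99, and the HOXA libraries of the 2 days overlapped. HOXC then had 7.72% and 7.01% on day 0, 3.95% and 4.34% on day 3 and 16.8% and 16.0% with ARID1A, so that ARID1A lay above both H3K27ac groups. An exact two-sided permutation test of 2 libraries against 2 gave p = 0.333 for each of the 6, the smallest it can give, and 0.333 after Benjamini-Hochberg adjustment.

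Listed contacts that left HOXA went almost all to one side. PETs are listed only where anchors were called. The nearest anchor lay 56.4 kb below and 451 kb above the window on day 0. With day 3 H3K27ac it lay 177 kb below and 1.81 kb above, and with ARID1A 8.45 kb below and 134 kb above. The low-coordinate side, beyond HOXA2, took 95.6% and 97.0% of outward PETs on day 0, 88.2% and 88.9% with day 3 H3K27ac and 86.7% and 85.2% with ARID1A. Among anchors with 100 or more PETs, 6.39% to 8.99% were as one-sided in the same library. These are single anchors, while a window pools several, so the shares are not on the same base. HOXB sent 20.7% and 23.9% to its low side on day 0, 36.8% and 34.5% with day 3 H3K27ac, and 42.2% and 44.2% with ARID1A. Without loops inside a merged anchor the HOXB shares were 36.9% and 41.0% on day 0 and 39.4% and 36.8% on day 3, which overlapped, and 50% and 53.2% with ARID1A. HOXC was balanced, at 48.9% to 58.3% over the 6 libraries.

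HOXA partners were far away with H3K27ac and nearer with ARID1A. Of outward PETs, 75.8% ± 0.276 reached over 500 kb on day 0 and 73.3% ± 0.780 with day 3 H3K27ac, against 34.1% ± 6.41 with ARID1A (SD, n = 2). In whole libraries 11.5% to 15.3% of PETs spanned over 500 kb. That share counts all PETs by loop span, short loops included, so it is not on the same base as the outward shares. The median distance to the partner was 986 kb in both day 0 libraries, 936 kb in both day 3 H3K27ac libraries, and 248 and 233 kb with ARID1A. For HOXB the median was 67.9 and 160.0 kb, 313 and 288 kb, and 164 kb in both ARID1A libraries. Here too the order of the days depended on loops inside a merged anchor. Without them, the HOXB medians were 472 and 497 kb on day 0. They were then 372 kb in both day 3 H3K27ac libraries, and 212 and 247 kb with ARID1A. HOXC medians were 258, 276 and 209 kb, equal within each group. The exact permutation test again cannot go below 0.333.

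**Figure D5:**
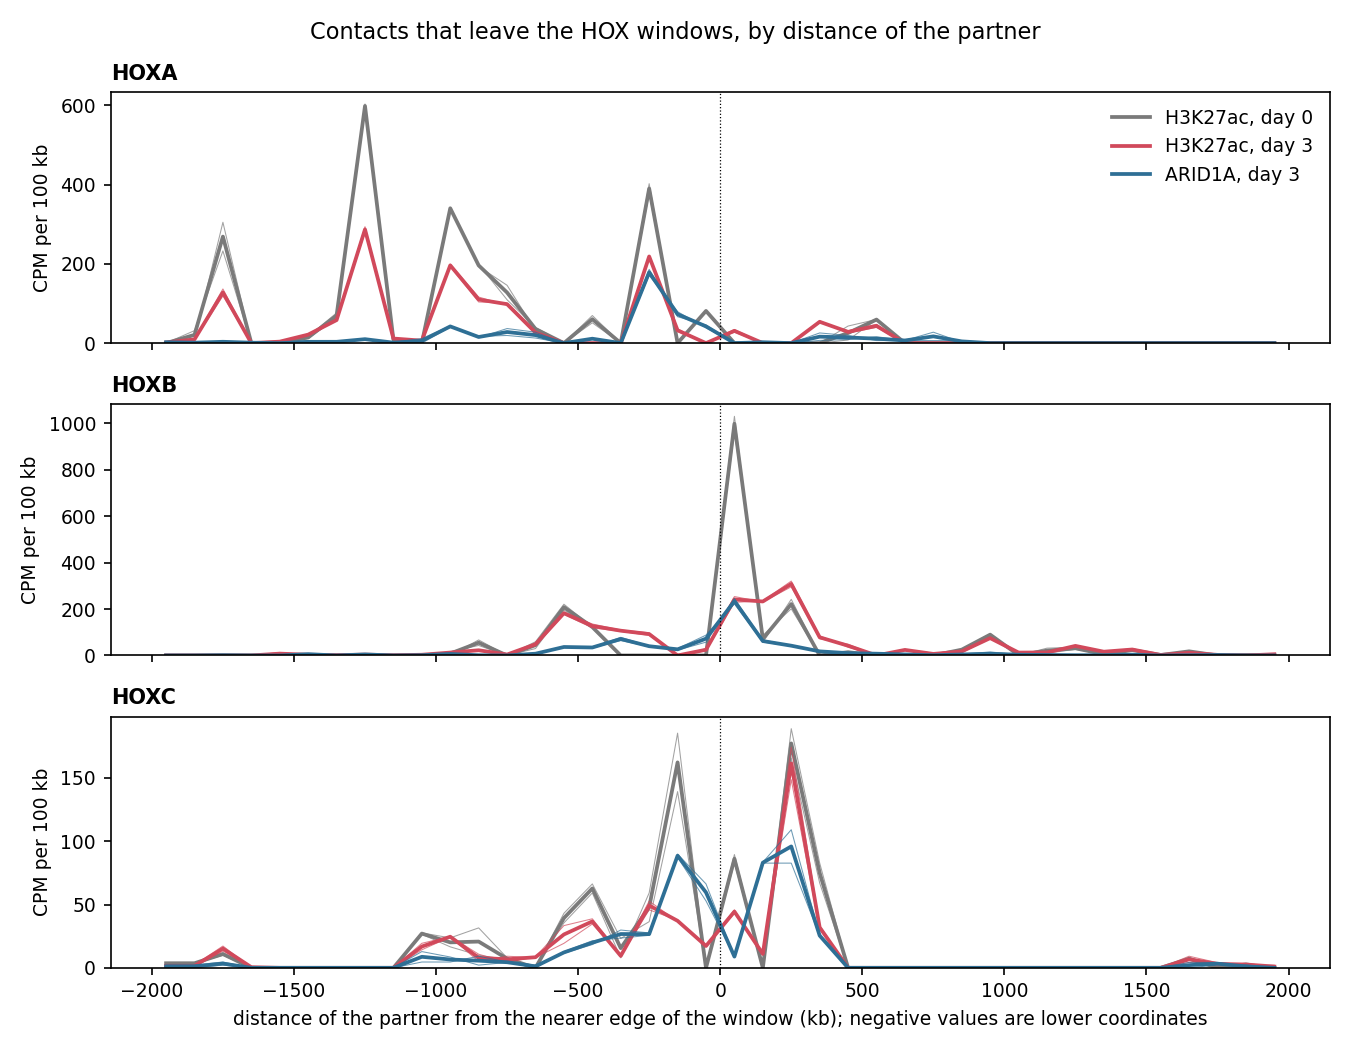
PETs that leave the HOXA, HOXB and HOXC windows (CPM per 100 kb bin) by distance of the partner from the nearer edge of the window (kb; negative is lower coordinates). Thick lines are means of 2 libraries and thin lines are the libraries; the HOXA peaks more than 500 kb away are high with H3K27ac and low with ARID1A.

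The 3 largest HOXA partners were the same anchors on both days of H3K27ac. The nearest, chr7:26887719-26906661, 223 kb below the window, had 378 and 402 CPM on day 0, 217 and 220 CPM on day 3, and 124 and 139 CPM with ARID1A, where it also ranked first. The next, chr7:26177444-26263152, 867 kb away, had 325 and 312 CPM on day 0, 172 and 165 CPM on day 3, and 34.5 and 27.8 CPM with ARID1A. At chr7:25881214-25912056, 1218 kb away, HOXA had 255 and 268 CPM on day 0 and 164 and 146 CPM on day 3, and ARID1A had no anchor. The other ARID1A partners in its first 3 were chr7:26976431-26992697 (55.1 and 57.8 CPM) and chr7:26877969-26886207 (62.0 and 32.1 CPM). Partners were also compared by whether the other protein had an anchor there. The shares of all PET ends count both ends of every loop, so they are not on the same base as the outward shares. Of day 3 HOXA outward PETs, 71.1% and 71.9% ended in partners where ARID1A was also called. For HOXB the share was 97.9% and 97.2%, and for HOXC 98.0% and 99.6%, against 86.0% and 86.1% of all PET ends in the same libraries. Conversely, 51.9% and 60.9% of ARID1A's HOXA PETs, 81.4% and 76.4% of its HOXB PETs and 60.1% and 61.9% of its HOXC PETs ended in partners with a day 3 H3K27ac anchor, against 67.2% and 67.4% of all ARID1A PET ends.

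HOXB partners lay on both sides. The anchor chr17:47036737-47085309, 227 kb above the window, had 199 and 170 CPM on day 0, 179 and 208 CPM on day 3, and 20.7 and 23.5 CPM with ARID1A. On the other side chr17:46062816-46106508, 493 kb below, had 189 and 213, 179 and 175, and 32.2 and 27.8 CPM in the same order. The H3K27ac groups overlapped at the first of these and at the second both day 3 libraries were below both day 0 libraries. A nearer partner, chr17:46867225-46880913, had 82.9 and 90.7 CPM on day 0 and 126 and 118 CPM on day 3, with 43.7 and 29.9 CPM for ARID1A. The first partner by rank on day 0 and with ARID1A was the part of chr17:46792333-46846380 outside the window, with 948 and 876 CPM and 156 and 141 CPM. The next with ARID1A were chr17:46888830-46923041 (46.0 and 51.3 CPM) and chr17:46202733-46231598 (46.0 and 34.2 CPM).

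For HOXC the partner that led on day 0, chr12:54139777-54152334, had 139 and 185 CPM then, 32.3 and 30.5 CPM with day 3 H3K27ac, and 34.5 and 44.9 CPM with ARID1A. With day 3 H3K27ac and with ARID1A the lead passed to chr12:54646883-54698929, at 93.6 and 66.2 CPM and at 46.0 and 62.0 CPM, from 119 and 110 CPM on day 0. The partner chr12:54713245-54738599 had 53.0 and 35.5 CPM on day 0 and 53.8 and 52.9 CPM on day 3, so the rise of its loop above held for 1 HOXC anchor. Just above the window, chr12:54470559-54478235 had 89.5 and 82.8 CPM on day 0 and 43.1 and 45.8 CPM on day 3. An ARID1A partner without any H3K27ac anchor, chr12:54217902-54227597, had 41.4 and 40.6 CPM.

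HOXD stood apart in having no anchor at all. The nearest anchors on day 0 lay 902 kb below and 966 kb above the window. With day 3 H3K27ac they lay 81.6 kb below, with 9 and 4 PETs, and 72.7 kb above, with 3 and 2 PETs. With ARID1A they lay 482 and 919 kb away. The gap without an anchor was thus 1978 kb on day 0, 264 kb with day 3 H3K27ac and 1511 kb with ARID1A, and 3.47%, 9.79% and 1.13% of the gaps between anchors in those groups were as long. An empty region was common: 58.4% of the 100 kb tiles of chromosome 2 had no listed loop in any library. Loops that passed over HOXD without touching it carried 1 and 0 PETs on day 0, 7 and 3 with day 3 H3K27ac, and 3 and 1 with ARID1A. Over HOXA, loops carried 13 and 10, 81 and 93, and 84 and 79 PETs in the same order. Over HOXB they carried 81 and 66, 326 and 330, and 174 and 230 PETs. Over HOXC they carried 171 and 142, 422 and 477, and 105 and 129 PETs. HOXD was thus spanned by the fewest contacts, and HOXA on day 0 was spanned by few as well. A region with no called anchor has no PETs listed by construction, so 0 is not a measured absence of contact.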

How the data were processed

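HiChIP libraries of G401 cells (paired reads of 150 bases, per the labels' protocols) were processed by the authors with HiC-Pro and Bowtie2 on hg19, per the submitters' processing notes, which give no versions; the loop caller is not given in the sources used here. The deposited files list 2 anchors per loop, PETs as raw counts, and a value from 0 to 1 that may be a p-value or q-value and served here only as a threshold of 0.01. Within a group no listed anchors overlapped without being identical, so both libraries used 1 set of anchors; the sets differed between groups.

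Anchors overlapping by 1 bp or more were merged (51970 to 30001). PETs were counted per window (the rest of the genome in 100 kb tiles), merged anchor and loop, with at least 10, 10 and 4 PETs in 2 libraries, and tested with edgeR 4.0.16 (R 4.3.3), comparing the 4 libraries of 2 groups at a time. DESeq2 1.42.0 was an alternative. On simulated counts edgeR recovered 83% of 2-fold changes over 5117 windows and tiles and 18% over 16642 loops between day 0 and day 3, and 79% over 7573 windows and tiles and 8% over 28338 loops between the day 3 groups. Depth was 253502 to 982141 PETs per library; no label mentions molecular identifiers.

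The members, lists and tests were chosen with earlier results of these data known. Windows were given; per window and comparison the 4 tested anchors and 4 tested loops with the most PETs are named, and the 3 partners with the most PETs per group; other loops named were chosen after their values were seen. RefSeq (GRCh38.p14) gave gene names, their order and promoters, and no hg19 positions.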

Additional observations from a re-analysis of the deposited data

How the results depend on the processing

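Of the 72 alternative values for window contacts, 65 kept direction and call. The HOXB fold from day 0 to day 3 was -0.088 with library totals and 0.011 without loops inside a merged anchor, which also took the change in its inside share from 1.99 to -9.17 percentage points. With loops at 0.01 or less, the HOXC fold was -0.64 (day 3 against day 0) and 0.25 (ARID1A against H3K27ac); 200 kb tiles gave the latter -0.16. The cause was not tested. Leaving out 1 library in turn gave, for HOXA, HOXB and HOXC, -1.08 to -0.83, -0.45 to -0.26 and -1.06 to -0.83 from day 0 to day 3, and -2.11 to -1.81, -1.96 to -1.73 and -0.35 to -0.052 for ARID1A; inside shares changed by 2.26 to 4.63, 1.10 to 2.88 and -10.1 to -5.98, and by -19.9 to -18.8, -19.1 to -17.3 and 2.71 to 6.85 percentage points.

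HOX anchors called from day 0 to day 3 numbered 3, against 7 with library totals (all lower), 8 of 12 with every merged anchor and 0 of 5 at similar width (4 at an unadjusted p under 0.05, edgeR; 2 of 9 by DESeq2); they numbered 2 to 3 without 1 library. For ARID1A the 7, all lower, became 16 of 17 with every merged anchor, 6 higher and 10 lower. Over all anchors 19611 of 22850 were then called. From day 0 to day 3 the 8 of 12 were 2 higher and 6 lower, with 12159 of 15046 called over all anchors. At similar width 3 of 3 were lower with ARID1A, with 1159 of 3279 called over all such anchors. The 7 kept negative log2 fold changes without any 1 library. HOX loops called from day 0 to day 3 numbered 15, against 26 with library totals and 2 with DESeq2 (63 had no adjusted p). Loops at 0.01 or less gave 22 (19 higher, 3 lower), and thinning to the smallest library gave 1. Every merged anchor gave 76 (59 higher, 17 lower), and no count filter gave 10 (8 higher, 2 lower). At similar width 0 of 34 were called (6 at an unadjusted p under 0.05, edgeR), against 52 of all 2551 such loops. Fewer were called without any 1 library, in HOX and over all loops. For ARID1A the 51 became 25 with DESeq2 (32 had no adjusted p), 0 of 288 without a count filter (89 at an unadjusted p under 0.05, edgeR; 1 of all 128668 loops was called), 5 after thinning, 128 with every merged anchor, 1 of 23 at similar width and 22 to 24 without 1 library.

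Replicate numbers are shared between groups, but same-numbered libraries did not deviate together (correlations of 0.001 to 0.013). With a replicate block the window folds were -0.998, -0.41 and -1.02 and -1.90, -1.78 and -0.13, and 3 and 7 anchors and 14 and 35 loops were called.

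Among the named anchors and loops, given by their start positions and compared between day 0 and day 3 unless ARID1A is named, the log2 fold change took the opposite sign as follows. Library totals gave -0.35 (HOXA 27166639), -0.33 (HOXB 46792333), -0.45 (HOXB 46643265), -0.36 (HOXB 46608965), -0.098 (HOXB 46628795), -0.31 (HOXC 54436183). Loops at 0.01 or less gave -0.39 (HOXA 27166639), -0.52 (HOXB 46643265), -0.22 (HOXB 46608965). Every merged anchor gave -0.29 (HOXA 27166639), -0.056 (HOXB 46643265), -0.14 (HOXB 46608965), -0.28 (HOXC 54436183). Similar width gave 0.47 (HOXC 54328305). Library totals gave -0.24 (HOXA 27132999 to 27166639), -0.036 (HOXB 46628795 to 46643265), -0.082 (HOXB 46792333 to 46867225), -0.064 (HOXC 54436183 to 54646883), -0.45 (HOXC 54328305 to 54646883). Thinning gave -0.23 (HOXA 27132999 to 27166639), 0.27 (HOXA 27166639 to 27186269), -0.016 (HOXC 54328305 to 54646883), 0.080 (HOXB 46792333 to 46888830, ARID1A comparison). No count filter gave 0.20 (HOXA 27166639 to 27186269), 0.13 (HOXB 46608965 to 46643265), 0.23 (HOXB 46792333 to 47036737), 0.19 (HOXC 54436183 to 54470559). Loops at 0.01 or less gave 0.14 (HOXA 27166639 to 27186269), 0.025 (HOXB 46608965 to 46643265), 0.14 (HOXB 46792333 to 47036737), 7.56 (HOXC 54436183 to 54470559), 6.80 (HOXC 54139777 to 54328305, ARID1A comparison). Similar width gave 0.31 (HOXC 54139777 to 54328305, ARID1A comparison). Leaving out 1 library in turn gave -0.24 to 0.082 (HOXA 27166639 to 27186269), -0.28 to 0.055 (HOXB 46608965 to 46643265), -0.70 to 0.31 (HOXB 46792333 to 46888830, ARID1A comparison), -0.11 to 0.22 (HOXB 46792333 to 47036737), -0.59 to 0.29 (HOXC 54139777 to 54328305, ARID1A comparison), -0.29 to 0.43 (HOXC 54328305 to 54646883), -0.23 to 0.094 (HOXC 54436183 to 54470559).

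The low PET counts of ARID1A and day 0 loops limit what loops can show, and 2 libraries per group limit all comparisons.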
